A study of Mus musculus with 7 samples.

Results

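The baseline transcriptome of 2 wild-type (WT) mouse esophageal epithelial cell lines, WT1 and WT2, was described from RNA-seq counts per gene. These 2 libraries were taken by their titles from a series of 7, and 11236 of 23955 gene names (46.9%) reached 1 CPM in both, where CPM is the read count scaled to a common library total, with TMM factors over all 7 libraries. The WT lines are labelled wild type and carry no treatment label. The other 5 lines are 3 with the missense allele p53R172H and 2 without p53 (p53 -/-), and all 5 are also labelled 4NQO, which is 4-nitroquinoline 1-oxide, a chemical that causes tumours of the esophagus and mouth. All 7 are esophageal epithelial cells of mixed strain background grown in 10 cm plastic dishes in KSFM, a serum-free medium for keratinocytes. Each line is 1 library, and the labels do not say whether the lines came from separate animals or from 1 clone each.

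The esophagus is lined by a stratified squamous epithelium. Its basal cells sit on a basement membrane, divide, and carry the keratin pair Krt5 and Krt14 and the transcription factor p63 (Trp63), whereas the cells above them stop dividing and switch to Krt4, Krt13 and proteins of the cornified envelope. In culture on plastic, keratinocytes are known to keep the basal keratins and to add the keratins of wounded and stressed epithelium.

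WT1 was sequenced to 31283848 counts and WT2 to 12751118, and the other 5 libraries to between 25469853 and 47000225. A gene with no count in a library could still stand at up to 0.1021 CPM in WT1 or 0.2436 CPM in WT2, where 3 counts is the limit that a count of 0 allows, for counting error only. The labelled cell type held against its markers. Krt5 stood at 13826 CPM in WT1 and 21396 CPM in WT2, Krt14 at 11359 and 14406 CPM, and Trp63 at 281 and 412 CPM. Of 13 basal squamous markers, 12 reached 1 CPM in both lines, and the exception was the nerve growth factor receptor Ngfr at 0.238 and 0.406 CPM. Of all 21 pairs of libraries in the series, WT1 and WT2 had the highest Pearson correlation of log2 CPM across genes (0.979), and the next pair had 0.958. Genes are not independent replicates, so this is a description.

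The most abundant transcripts of both lines were those of basal and stress keratins, translation, and attachment to the basement membrane. Krt5 ranked first in both lines and took 1.30% of all counts in WT1 and 2.07% in WT2. Krt14 ranked second, at 11359 and 14406 CPM. The translation elongation factors Eef1a1 (10856 and 9173 CPM) and Eef2 (6878 and 7353 CPM) ranked 3 and 5 by the mean of both lines, and Krt17 and Krt6a ranked 4 and 6. They were followed by Fth1, the ferritin heavy chain that stores iron, by Gsto1, a glutathione transferase of the omega class (5794 and 4158 CPM), by the chaperone Hsp90ab1 (4841 and 4341 CPM) and by Col17a1, the transmembrane collagen of the hemidesmosome (2883 and 4565 CPM). The phospholipid-binding protein Anxa1, the desmosome protein Dsp, the hemidesmosomal integrin Itgb4 and the heparan sulfate proteoglycan Sdc1 were also among the 30 highest.

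Counts grow with transcript length, so levels of different genes were compared as CPM per kb of exon. Of the 30 genes highest in CPM, 17 were also among the 30 highest in CPM per kb. Krt5 (6293 CPM per kb in WT1 and 9738 in WT2) and Krt14 (6689 and 8484) kept ranks 1 and 2, with Krt14 ahead in WT1 and Krt5 ahead in WT2. In what follows, a gene is called higher than another gene, or leading in its family, by CPM per kb only. The length is the union of all annotated exons of a gene, so genes with many isoforms are understated. Short transcripts moved up, among them the ribosomal proteins Rplp1 and Rps12 and the calcium-binding protein S100a6. Long transcripts of attachment moved down, with Col17a1 going from rank 10 to rank 61.

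The counts were spread over the same number of genes in both lines to within a few percent. The 10 highest genes of each line held 7.62% of counts in WT1 and 7.74% in WT2, and 850 and 879 genes held the upper 50% of counts. At 10 CPM or more in both lines there were 8835 genes, at 100 CPM 2225, and at 1000 CPM 79. Of the 30 highest genes in each line 23 were shared, and of the 100 highest 82. The clearest change of rank among the leading genes was Rn45s, the precursor of ribosomal RNA, which ranked 127 in WT1 and 10 in WT2. It took 0.0832% and 0.369% of counts. Poly(A) selection is meant to remove ribosomal RNA, and the part this difference plays in the other comparisons of the lines was not tested.

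Keratins form the intermediate filaments of epithelial cells, as pairs of a type I and a type II chain. Of 52 keratin names in the table, 19 reached 1 CPM in both lines and 8 reached 100 CPM. The basal pair stood highest, and the third basal keratin, Krt15, was at 48.0 and 65.0 CPM. All 4 stress keratins were at 100 CPM or more. Krt17 was at 9939 CPM in WT1 and 5734 CPM in WT2, and Krt6a at 5784 and 5229.9 CPM. Their relatives Krt16 (247 and 333 CPM) and Krt6b (123 and 225 CPM) were more than 10-fold lower in each line. Krt16 was at 158 and 213 CPM per kb against 6408 and 3697 for Krt17, and Krt6b at 55.1 and 100.5 against 2539 and 2296 for Krt6a. Krt6a and Krt6b are near-identical copies, so the split of reads between them is uncertain.

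The keratins of the upper esophageal layers were low. Krt13 was at 85.9 and 173 CPM and its partner Krt4 at 2.45 and 4.87 CPM. Per kb, Krt13 stood at 51.9 and 105, above the basal Krt15 (28.2 and 38.3) and far below Krt5. Of the keratins of dry skin, Krt10 was at 2.59 and 4.71 CPM and Krt1 at 0.102 and 0.487 CPM. Keratins of simple epithelia were also present. Krt7 was at 1059 CPM in WT1 and 167 CPM in WT2, Krt8 at 679 and 69.9 CPM, Krt18 at 302 and 138 CPM, and Krt20 at 51.9 and 85.4 CPM. Krt19 was near the limit of 1 CPM, at 0.510 and 4.63 CPM.

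**Figure D1:**
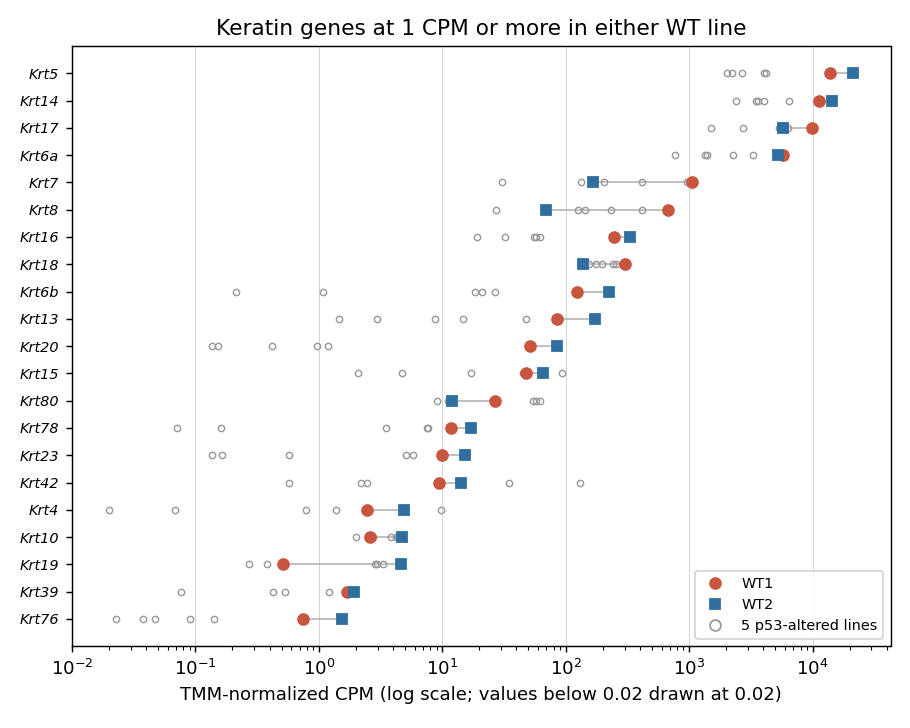
Level of each keratin gene at 1 CPM or more in either WT line, in TMM-normalized CPM on a log scale, with 1 row per gene. Red circles are WT1, blue squares are WT2 and open grey circles are the 5 p53-altered lines. Krt5 and Krt14 lie highest in both WT lines, the 2 WT symbols lie far apart for Krt7, Krt8 and Krt19, and the open circles for Krt20 lie near or below 1 CPM.

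The genes of the hemidesmosome, the plaque that fixes basal cells to the basement membrane, were high together. Integrins are receptors made of 1 alpha and 1 beta subunit. Of 18 alpha subunits 8 reached 1 CPM in both lines and 2 reached 100 CPM, and of 8 beta subunits 5 and 3 did so. The leading members were Itga3 (1634 and 1833 CPM) and Itga6 (811 and 944 CPM), which pair with Itgb1 (1088 and 1211 CPM) and Itgb4 (1771 and 2253 CPM) to bind laminin. Itgav, Itgb5 and Itgb6, subunits of receptors for vitronectin and for latent TGF-beta, were at 159.8 and 99.5, 116 and 106 and 70.8 and 45.3 CPM. The fibronectin receptor subunit Itga5 was at 87.8 and 66.2 CPM and the collagen receptor subunit Itga2 at 18.8 and 29.7 CPM. Itga1, the other widespread collagen receptor subunit, was at 0.0340 and 0.162 CPM and Itgb8 at 0.0340 and 0 CPM, each on 2 counts or fewer per line.

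The ligands of these integrins were made by the same cells. Lama3 and Lamb3, chains of laminin-332, the laminin of epithelial basement membranes, stood at 1604 and 1903 CPM and 1211 and 1353 CPM. Per kb of exon they were at 149 and 177 and at 236 and 264 CPM per kb. Lama5, Lamb1 and Lamc1, the chains of laminin-511, were at 618 and 580.4, 484 and 558 and 239 and 185 CPM. The chains Lama1, Lama2 and Lama4 of other tissues were at 0.325 CPM or less in both lines. Of 16 other basement membrane and hemidesmosome genes 10 reached 100 CPM, led per kb by Col17a1 (516 and 817 CPM per kb). The linker proteins Dst and Plec, which tie keratin filaments to the membrane, were at 1318 and 1683 and 1175 and 1357 CPM. The anchoring fibril collagen Col7a1 was at 422 and 615 CPM.

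**Figure D2:**
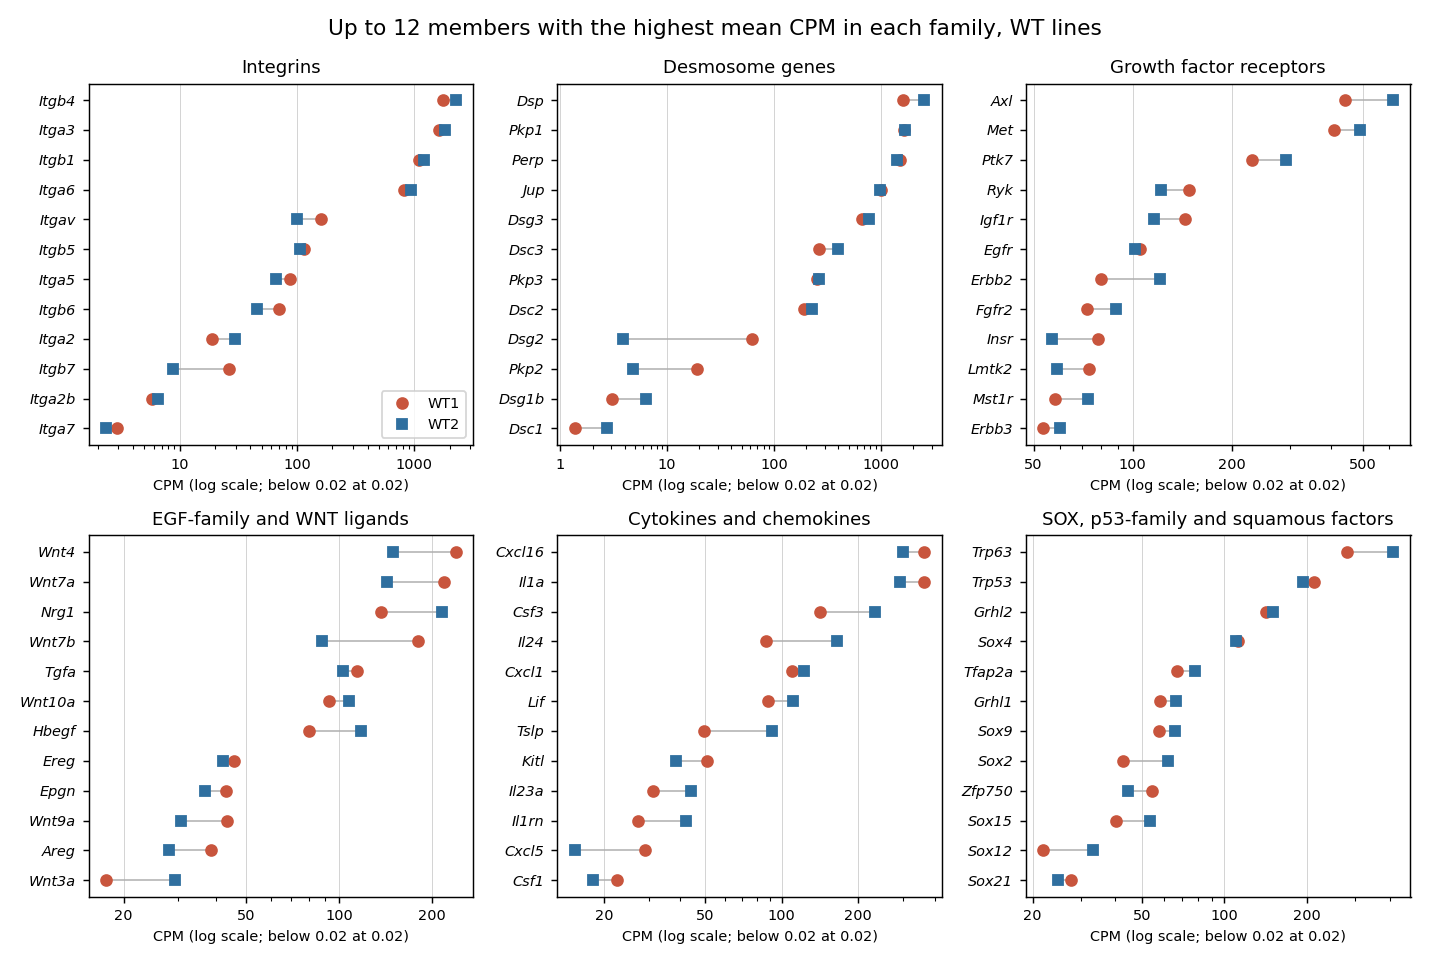
Levels of up to 12 members with the highest mean CPM in each of 6 families, in TMM-normalized CPM on log scales that differ between panels. Red circles are WT1 and blue squares are WT2, joined by a grey line. Most pairs lie close together, and among the 12 integrins the gap is widest for Itgb7, at 26.3 CPM in WT1 and 8.69 CPM in WT2.

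Desmosomes and adherens junctions couple keratinocytes to each other, and most of their squamous members were high. Of 15 desmosome genes 8 reached 100 CPM in both lines. They were the plaque proteins Dsp (1611 and 2565 CPM), Pkp1, Pkp3 and Jup, the tetraspan protein Perp, and the cadherins Dsg3 (673 and 772 CPM), Dsc3 (262 and 402 CPM) and Dsc2. Of 23 classical and related cadherins only Cdh1 (E-cadherin, 931 and 691 CPM) and Cdh3 (P-cadherin, 399 and 533 CPM) reached 100 CPM in both lines. Cdh2, the N-cadherin of mesenchymal and neural cells, was at 0.136 and 1.06 CPM. The tight junction claudins Cldn4 (1003 and 537 CPM) and Cldn1 (352 and 313 CPM) led their family, and the gap junction protein Gja1 (309 and 308 CPM) led the connexins. Cldn4 was at 552 and 296 CPM per kb. The hyaluronan receptor Cd44 was at 1272 and 1198 CPM.

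Receptors were expressed at a share near that of all genes. Of 279 receptor names over 12 lists, 129 (46.2%) reached 1 CPM in both lines, beside 46.9% of all gene names. At 100 CPM there were 28 receptors. The highest per kb was Tnfrsf12a, the receptor for the cytokine TWEAK, at 206 and 187 CPM and 194 and 176 CPM per kb. Among receptor tyrosine kinases the highest were Axl, the receptor for Gas6, at 443 CPM in WT1 and 618 CPM in WT2, and Met, the receptor for hepatocyte growth factor, at 409.7 and 490.2 CPM. Of the ErbB receptors, Egfr was at 105 and 101 CPM, Erbb2 at 79.9 and 121 CPM and Erbb3 at 53.5 and 60.2 CPM, whereas Erbb4 had no count in either line. Erbb2 led this family per kb, at 15.9 and 24.1 CPM per kb against 9.58 and 9.25 for Egfr. Of the FGF receptors, Fgfr2, whose epithelial form binds Fgf7, was at 72.7 and 89.1 CPM, and Fgfr1 was at 0.272 and 0.731 CPM. The ephrin receptor Epha2 was at 304 and 308 CPM. Among receptors known from mesenchymal and blood-forming cells, Pdgfrb had 0 counts in both lines and Kit was at 0.0340 and 0.162 CPM, while Pdgfra exceeded 1 CPM in both.

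In the Notch pathway, which drives squamous differentiation, the ligands Jag2 (293 and 475 CPM) and Jag1 (208 and 260.0 CPM) and the receptors Notch1 (218 and 244 CPM) and Notch2 (138 and 101 CPM) were all at 100 CPM or more, and the target Hes1 was at 245 and 348 CPM. The type II TGF-beta receptor Tgfbr2 was at 661 and 517 CPM, and 12 of 14 TGF-beta and BMP receptors reached 1 CPM in both lines. For WNT signals, the frizzled receptor Fzd6 (118 and 103 CPM) and the coreceptors Lrp5 (145 and 120.5 CPM) and Lrp6 (139.9 and 127 CPM) led. The semaphorin receptors Plxnb2 and Nrp2 were at 606 and 706 and 539 and 452 CPM. Of 58 cytokine receptors only Il4ra, the shared chain of the IL-4 and IL-13 receptors, reached 100 CPM in both lines, at 104 and 119.8 CPM. Of 73 G protein-coupled receptors 19 reached 1 CPM, led by Gprc5a (172 and 111 CPM) and by Smo, the transducer of hedgehog signals (115 and 125 CPM).

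Of 396 transcription factor names, 213 reached 1 CPM in both lines and 38 reached 100 CPM. Trp63 was at 281 CPM in WT1 and 412 CPM in WT2 and Trp53 at 212 and 193 CPM, while the third member of the p53 family, Trp73, was at 0.442 and 0.731 CPM. Factors known for squamous epithelium stood beside them. Grhl2 was at 142 and 151 CPM, Ehf at 186 and 213 CPM, Klf5 at 135 and 114 CPM, Klf4 at 193 and 188 CPM and Zfp750 at 54.3 and 44.4 CPM. Sox2, needed to separate the esophagus from the trachea, was at 42.5 and 62.5 CPM, Sox4 at 113 and 109.9 CPM and Sox9 at 57.9 and 65.8 CPM. Per kb the highest of the SOX factors was Sox15, at 46.8 and 62.2 CPM per kb against 20.7 and 30.4 for Sox2. The homeobox factor Pitx1 (151 and 199.7 CPM) was the highest of 73 foregut, squamous homeobox and T-box factors, and Pax9, a paired box factor of the oral and esophageal epithelium, was at 26.1 and 39.9 CPM.

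In other families the number of members expressed and their levels varied. Of 44 forkhead factors, 21 reached 1 CPM in both lines and 4 reached 100 CPM, among them Foxp4 at 149 and 128 CPM (37.0 and 31.6 CPM per kb). Foxa1 was at 10.8 and 3.25 CPM and Foxa2, a factor of glandular endoderm, at 0.102 and 0.0812 CPM, on 3 counts in WT1 and 1 in WT2. Of 39 HOX genes 19 reached 1 CPM in both lines, among them Hoxc6 (10.1 and 21.4 CPM) and Hoxc8 (10.9 and 23.1 CPM). Of the GATA factors Gata6 led at 16.8 and 11.4 CPM. Of 7 factors of epithelial to mesenchymal transition, 5 reached 1 CPM in both lines and 2 reached 10 CPM. Snai2 was at 121 and 155 CPM, while Zeb1 had 1 and 2 counts and Snai1 0 and 1 counts. Over all the factor lists, the 5 highest means per kb were those of the Notch target Hes1, Junb (343 and 378 CPM), Ets2 (672 and 428 CPM), Myc (300.1 and 263 CPM) and Klf6 (483 and 469.9 CPM), the last 4 being genes that growth signals induce.

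Of 518 names of secreted factors, 171 reached 1 CPM in both lines and 38 reached 100 CPM. Among these 518 names, the highest means per kb were those of Igfbp7, which binds insulin-like growth factors (516 and 403 CPM), and of the small protease inhibitors Wfdc2 (236 and 216 CPM) and Slpi (318 and 145 CPM). Ligands of the ErbB receptors were made in the lines, with Nrg1 at 137 CPM in WT1 and 216 CPM in WT2, Tgfa at 114 and 103 CPM and Hbegf at 80.0 and 118 CPM, and 6 of 11 ligands of this family reached 10 CPM. WNT ligands were led by Wnt7a (219 and 143 CPM), Wnt4 (239 and 149.6 CPM), Wnt7b (180.2 and 88.2 CPM) and Wnt10a (92.5 and 108 CPM). FGF family genes were scarce, with 2 of 22 at 1 CPM or more in both lines and none at 10 CPM. The 22 include Fgf13, which stays inside the cell. The stromal growth factors Fgf7, Hgf and Igf1 had at most 3 counts in a line. The BMP and activin antagonist Fst was at 335 and 455 CPM (118 and 160.4 CPM per kb), above the activin subunit Inhbb at 134 and 145 CPM (31.5 and 34.0 CPM per kb).

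Few cytokines and chemokines reached high levels. Il1a, a cytokine stored in keratinocytes, was at 364 and 292 CPM and was the only 1 of 40 interleukins at 100 CPM or more in both lines. Il24 was at 87.0 and 165 CPM and Tslp, a cytokine that acts on dendritic cells, at 49.5 and 91.4 CPM. The granulocyte factor Csf3 was at 141 and 234 CPM, Lif at 88.2 and 111 CPM, and the chemokines Cxcl16 and Cxcl1 at 363 and 301 and 109.5 and 123 CPM. Il6 had no count in either line, and none of 20 interferon genes reached 1 CPM in either line. Proteins that shape the matrix included Htra1, a serine protease that is not among the 518 names, at 2579 and 1328 CPM. Others were Timp2 at 835 and 585 CPM, Mmp14 at 366 and 406 CPM, the binding protein Igfbp3 at 321 and 255 CPM, and Plau, the urokinase of the plasminogen system, at 433 and 332 CPM.

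Genes of squamous differentiation ranged widely in level. There were 82 genes in 3 lists (the SPRR genes, cornified envelope and transglutaminase genes, and S100 proteins). Of these, 54 (65.9%) reached 1 CPM in both lines, beside 46.9% of all gene names, 15 reached 100 CPM and 2 reached 1000 CPM. S100a6 was at 1608 and 1949 CPM. The envelope precursors Sprr2h and Sprr2d were at 128 and 101 and 111 and 98.7 CPM, and the Sprr2 genes share sequence, so reads may be split between them. The envelope linker proteins Ppl (398 and 297 CPM) and Evpl (138 and 142 CPM) were higher per kb (64.0 and 47.7, 21.6 and 22.3) than Ivl, the envelope protein involucrin (19.8 and 31.2 CPM, 10.3 and 16.2 per kb). Loricrin (Lor), which is abundant in dry epidermis, was at 3.67 and 5.44 CPM, and Crnn, the cornulin of the upper esophageal layers, at 0.0340 and 0.0812 CPM.

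Markers of other cell types were almost all near 0. Of 15 fibroblast markers 2 reached 1 CPM in both lines, Twist2 (4.90 and 7.71 CPM) and Pdgfra (4.80 and 3.25 CPM), and the list summed to 11.1 CPM in WT1 and 17.1 CPM in WT2. The list summed to between 14.4 and 916 CPM in the 5 other lines. Of 14 muscle markers Acta2 (151 and 279 CPM) alone reached 10 CPM, with Des at 0.0680 and 0.568 CPM and Myh11 at 0.136 and 0.162 CPM. Cd68 was the leukocyte marker that exceeded 1 CPM (74.1 and 78.9 CPM) and Egfl7 the endothelial one (12.1 and 13.7 CPM). Of 18 columnar and glandular markers, 3 reached 1 CPM in both lines, all of them keratins (Krt8, Krt18 and Krt20), and 10 had no count in either line, among them Cdx1, Hnf4a and Muc5ac. The mesenchymal filament Vim was at 0.646 and 3.41 CPM.

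The WT lines were next compared with the 5 p53-altered lines, to show which of these families set the WT lines apart. edgeR's quasi-likelihood test over 13768 genes called 386 genes (2.8%) higher and 262 (1.9%) lower in WT at an adjusted p under 0.05. Of 23 keratins tested, 6 were higher in WT and none was lower. Krt5 was at 13826 and 21396 CPM in WT1 and WT2 against 4214, 2695 and 2215 CPM in the mutant lines and 4048 and 2035 CPM in the null lines. Both WT values lay above all 5 others, and the log2 fold change was 2.53 (SE 0.369) with an edgeR adjusted p of 0.0270. Krt20, a keratin of gut and bladder lining, was at 51.9 and 85.4 CPM in WT against 0.976, 1.19 and 0.138 CPM in the mutant lines and 0.152 and 0.418 CPM in the null lines. The groups did not overlap, and the log2 fold change was 7.20 (SE 0.765, edgeR adjusted p = 0.0165). The other 4 were Krt14 (1.75), Krt16 (2.65), Krt13 (3.47) and Krt23 (3.32), given as log2 fold changes.

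Of 96 adhesion and matrix genes tested, 6 (6.25%) were higher and 2 (2.08%) lower in WT, beside 2.8% and 1.9% of all genes. The higher ones included Itgb4 (log2 fold change 1.47, edgeR adjusted p = 0.0483), Lama3 (1.85, adjusted p = 0.0332) and Sdc1 (0.76, adjusted p = 0.0442). The 2 lower were the laminin chain Lamb2 (-1.98) and the connexin Gjc1 (-4.17). Of 191 receptors tested 6 (3.14%) were higher and 4 (2.09%) lower, shares near those of all genes, and the largest fold changes among the higher ones were those of Tnfrsf18 (4.33) and the nucleotide receptor P2ry2 (2.40), while Mertk (-5.86) and the thrombin receptor F2r (-5.26) were lower. Of 285 secreted factors tested 8 (2.81%) were higher and 7 (2.46%) lower, also near those of all genes. Csf3 was at 141 and 234 CPM in the WT lines, where the highest altered line had 31.6 CPM (log2 fold change 4.20, edgeR adjusted p = 0.0124), and Lif at 88.2 and 111 CPM against at most 66.4 CPM (1.34, adjusted p = 0.0256).

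Of 287 transcription factors tested, 9 (3.14%) were higher and 11 (3.83%) lower, beside 2.8% and 1.9% of all genes. The higher ones included Trp53 (2.38), Grhl1 (1.73), Grhl2 (0.91), Hes1 (2.16) and Zfp750. Trp53 is the gene altered in these lines and is labelled -/- in the null lines, so its call is not independent of the genotype. Zfp750, a driver of keratinocyte differentiation, was at 54.3 and 44.4 CPM in WT and between 0 and 6.97 CPM in the altered lines (log2 fold change 5.80, edgeR adjusted p = 0.0470). The largest was in Nkx2-9, a homeobox factor, at 3.95 and 4.71 CPM in the WT lines and no more than 0.0229 CPM elsewhere, and the lower ones included Foxf2, Klf15, Smad6 and Zeb2. Of 63 differentiation genes tested 12 were higher and none lower, beside 2.8% and 1.9% of all genes, and the 12 included Sprr2d, Sprr3, Ivl, Tgm3, Ppl and Evpl.

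These calls rested on both WT lines. Without WT1, 3 genes were called higher and 0 lower, and without WT2 1 and 0. An unadjusted p under 0.05 was reached by 2575 and 1696 genes in these fits. Xist, the RNA that coats and silences an X chromosome, was called in the fits without WT1 and without WT2. It stood at 675 CPM in WT1 and 1653 CPM in WT2 and between 0.152 and 0.964 CPM in the 5 altered lines, so it was high in both WT lines and under 1 CPM in the others (log2 fold change 11.64, edgeR adjusted p = 0.00348). Genotype, the 4NQO label and the split in Xist cannot be told apart in this comparison, and in bulk RNA a change in the share of cells of a kind cannot be told apart from a change per cell.

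**Figure D3:**
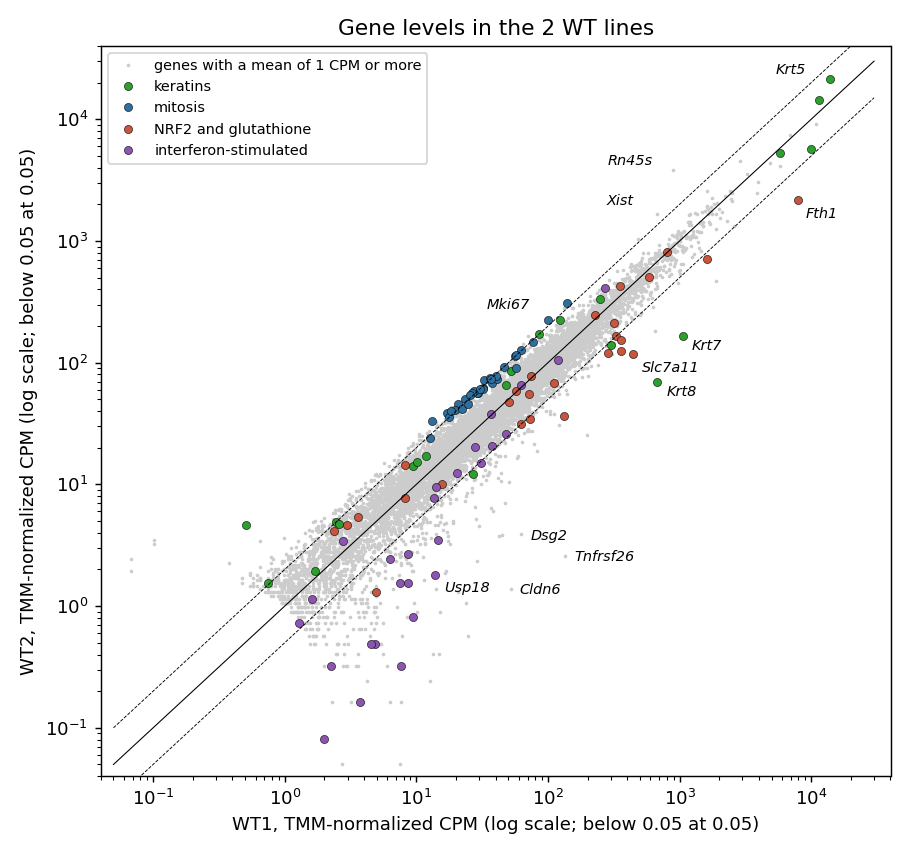
Level of each gene with a mean of 1 CPM or more in WT1 (horizontal) against WT2 (vertical), in TMM-normalized CPM on log axes. The solid line marks equal levels, the dashed lines mark 2-fold differences, and coloured points are 4 of the gene lists. Mitosis genes lie along the upper dashed line, on both sides of it, and many interferon-stimulated genes and several NRF2 and glutathione genes lie below the lower one.

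The 2 WT lines were then compared with each other. With 1 library per line there is no test of this difference within the WT lines, so genes are given by size, and the intervals printed cover counting error only. On the scale log2((CPM in WT2 + 0.5)/(CPM in WT1 + 0.5)), 480 of 11514 genes (4.17%) with a mean of 1 CPM or more were at least 2-fold apart. Of these, 143 (1.24%) were higher in WT2 and 337 (2.93%) higher in WT1. At 4-fold there were 6 and 70, so the large differences lay mainly on the side of WT1. The median over all genes was 0.02, with 5981 genes above 0 and 5533 below 0.

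Of 6 keratins of simple epithelia measured, 3 were at least 2-fold higher in WT1 and 1 in WT2, beside 2.93% and 1.24% of all genes. Krt8 was 9.71-fold higher (95% counting interval 9.07 to 10.4) and Krt7 6.34-fold higher (6.07 to 6.64) in WT1, and Krt18, the partner of Krt8, was 2.18-fold higher (2.07 to 2.30). Krt19 (0.510 and 4.63 CPM) and Krt20 (51.9 and 85.4 CPM) stood higher in WT2, Krt20 by less than 2-fold. Dsg2, the desmosomal cadherin also found in simple epithelia, was at 62.5 CPM in WT1 and 3.90 CPM in WT2, while its squamous relative Dsg3 was at 673 and 772 CPM. Of the claudins, Cldn6 was at 51.9 and 1.38 CPM and Cldn7 at 37.1 and 6.41 CPM. Crb3, a protein of the apical polarity complex, was at 28.4 and 5.20 CPM. The glandular markers Muc2 and Muc5b stood at 0.170 and 0.244 and 0.102 and 0.0812 CPM, both close to the limit of detection in each line.

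Basal and suprabasal squamous markers leaned the other way by less. All 12 measured basal markers had a ratio above 0 with a median of 0.38, none reached 2-fold, and Krt5 was 1.55-fold and Trp63 1.47-fold higher in WT2. Of 13 measured suprabasal markers 12 were above 0, with a median of 0.64, and 3 (23.1%) reached 2-fold, beside 1.24% of all genes. The 3 were Krt13 (85.9 and 173 CPM), the matrix protein of the envelope Rptn (12.6 and 27.4 CPM) and the protease Tmprss11a (2.59 and 6.33 CPM). Of 21 keratins measured, 2 (9.52%) were 2-fold higher in WT2 and 4 (19.0%) in WT1, beside 1.24% and 2.93% of all genes. Those higher in WT2 were Krt13 and Krt19, and those higher in WT1 were Krt7, Krt8, Krt18 and Krt80. Among the stress keratins Krt17 was lower in WT2 (1.73-fold higher in WT1) and Krt6b higher (1.82-fold).

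Cell cycle genes formed the most uniform difference. All 32 mitosis genes were higher in WT2, with a median log2 ratio of 0.996, and 16 were at least 2-fold apart. Mki67, the proliferation antigen Ki-67, was at 99.8 CPM in WT1 and 225 CPM in WT2, a ratio of 2.26 (95% counting interval 2.14 to 2.38). Top2a, the topoisomerase that untangles sister chromatids, was at 140.4 and 306 CPM. The kinetochore gene Nuf2 had the largest ratio of the list, 2.54 (2.21 to 2.93). All 34 DNA replication genes were also above 0, with a median of 0.59. Mcm10 alone (2.94%) reached 2-fold, near the 1.24% of all genes. In the 5 altered lines Mki67 ranged from 14.6 to 187 CPM, so WT1 lay within the range of the others and WT2 above it.

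The promoters of 2 of these genes are shown because a CCAAT box is a common element of mitosis genes. In windows of 250 bases before the start of each gene (RefSeq, GRCm38.p6), CCAAT on either strand was found in 25 of 31 windows of 29 mitosis genes (80.6%), against 35.3% of 11175 windows of the 8752 tested genes that matched the table. The capitals mark CCAAT or its reverse complement ATTGG. The Mki67 window is chr7:135716380-135716629 on the minus strand, with 3 matches, and the Top2a window is chr11:99024190-99024439 on the minus strand, with 6 matches. A match is a description of the letters and not a measured site.
Mki67: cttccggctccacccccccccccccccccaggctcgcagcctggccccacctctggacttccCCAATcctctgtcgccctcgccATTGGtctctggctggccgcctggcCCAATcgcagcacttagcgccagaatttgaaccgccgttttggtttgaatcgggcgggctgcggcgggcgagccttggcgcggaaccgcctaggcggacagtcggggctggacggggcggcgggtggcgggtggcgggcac
Top2a: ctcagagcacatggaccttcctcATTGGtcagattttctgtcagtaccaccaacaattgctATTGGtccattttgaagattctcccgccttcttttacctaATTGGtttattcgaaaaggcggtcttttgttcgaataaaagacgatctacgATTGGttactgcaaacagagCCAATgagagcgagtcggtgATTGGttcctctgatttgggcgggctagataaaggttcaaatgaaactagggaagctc

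Of 42 interferon-stimulated genes, 27 had a mean of 1 CPM or more, and 23 of these were lower in WT2. Their median log2 ratio was -1.04. Of the 27, 14 (51.9%) were at least 2-fold higher in WT1 and none in WT2, beside 2.93% and 1.24% of all genes. The summed level of the list was 792 CPM in WT1 and 753 CPM in WT2, and 9 members reached 10 CPM in both lines. Usp18, which removes the ubiquitin-like protein Isg15, was at 13.8 CPM in WT1 and 1.79 CPM in WT2. Ifi44 was at 7.62 and 0.325 CPM, Gbp2, a guanylate-binding protein, at 9.46 and 0.812 CPM, and Isg15 at 4.86 and 0.487 CPM on 143 and 6 counts. The receptor genes of the pathway differed little, with Ifnar1 at 71.3 and 64.7 CPM and Ifngr1 at 46.9 and 52.8 CPM. The transcription factor Irf9 was at 31.2 and 14.9 CPM, whereas Ifitm3, the highest member, was higher in WT2 (272 and 409 CPM). In the altered lines Usp18 ranged from 0.522 to 54.9 CPM and Isg15 from 2.73 to 47.8 CPM.

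Many genes of this kind carry an interferon-stimulated response element (ISRE), searched here as a pair of GAAA with any 2 bases between them, on both strands. It was found in 8 of 23 windows of 21 interferon-stimulated genes (34.8%), against 2.34% of all 11175 windows. Of the genes at least 4-fold higher in WT1, the windows of 4 with a match were chosen as examples. Others as far apart, such as Usp18 and Ifi44, are not shown. The 4 windows are printed with the matches in capitals, as read on either strand. They are Isg15 (chr4:156200819-156201068, minus strand, 3 overlapping matches), Ifit1 (chr19:34640639-34640888, plus strand, 2 matches), Rsad2 (chr12:26456453-26456702, minus strand, 1 match) and Gbp2 (chr3:142620413-142620662, plus strand, 1 match). The files count reads on another build, mm9, and hold no coordinates.
Isg15: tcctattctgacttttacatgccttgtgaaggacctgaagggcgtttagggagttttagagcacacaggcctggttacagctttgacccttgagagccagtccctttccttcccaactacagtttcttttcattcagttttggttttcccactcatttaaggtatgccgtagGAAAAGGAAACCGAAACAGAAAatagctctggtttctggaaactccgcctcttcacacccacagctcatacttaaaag
Ifit1: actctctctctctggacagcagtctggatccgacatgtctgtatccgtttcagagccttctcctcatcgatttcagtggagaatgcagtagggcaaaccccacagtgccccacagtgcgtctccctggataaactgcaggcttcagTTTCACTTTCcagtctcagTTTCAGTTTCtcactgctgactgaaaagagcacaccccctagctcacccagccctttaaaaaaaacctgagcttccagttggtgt
Rsad2: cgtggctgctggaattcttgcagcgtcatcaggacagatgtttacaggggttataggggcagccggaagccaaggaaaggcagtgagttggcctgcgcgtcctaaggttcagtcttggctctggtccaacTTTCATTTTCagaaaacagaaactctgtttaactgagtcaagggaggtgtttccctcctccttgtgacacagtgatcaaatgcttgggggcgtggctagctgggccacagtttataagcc
Gbp2: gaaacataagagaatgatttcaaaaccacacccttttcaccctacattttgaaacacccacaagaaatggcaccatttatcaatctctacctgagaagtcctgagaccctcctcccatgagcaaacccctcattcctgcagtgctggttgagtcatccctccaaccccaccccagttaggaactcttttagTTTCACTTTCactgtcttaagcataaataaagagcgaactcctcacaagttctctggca

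Genes of the oxidative stress response, many of them targets of the transcription factor NRF2, were also higher in WT1. Of 27 measured, 10 (37.0%) were at least 2-fold higher in WT1 and none in WT2, beside 2.93% and 1.24% of all genes. The median log2 ratio was -0.59. Fth1 was at 7931 CPM in WT1 and 2155 CPM in WT2, a ratio of 3.68 (95% counting interval 3.63 to 3.73), and Ftl1, the ferritin light chain, at 1622 and 714 CPM. The cystine transporter Slc7a11 was at 440.4 and 118 CPM, the thioredoxin reductase Txnrd1 at 358 and 125 CPM and the sulfiredoxin Srxn1 at 132 and 36.1 CPM. Both subunits of the enzyme that makes the first step of glutathione synthesis were higher in WT1, Gclc at 361 and 152 CPM and Gclm at 72.6 and 34.3 CPM. Outside the list, the autophagy receptor Sqstm1 was at 1889 and 464 CPM and Ptgr1, a prostaglandin reductase, at 196 and 25.3 CPM. Other members were level or higher in WT2, with Tkt at 804 and 804 CPM, G6pdx at 226 and 246 CPM and Nqo1 at 2.35 and 4.14 CPM. In the altered lines Fth1 ranged from 1194 to 18858 CPM and Slc7a11 from 225 to 985 CPM.

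The other programs differed by less. Of 24 measured genes of glycolysis and hypoxia 3 (12.5%) were 2-fold higher in WT1, beside 2.93% of all genes, and the median was -0.32. The 3 were Ndrg1 (654 and 184 CPM), the mitophagy receptor Bnip3 (42.5 and 3.73 CPM) and the peptide hormone Adm (9.05 and 2.19 CPM). Of 37 measured p53 targets 32 were below 0, beside 5533 of all 11514 genes, with a median of -0.29. Only 1 (2.70%) was 2-fold higher in WT1, near the 2.93% of all genes. Cdkn1a, which encodes the cyclin-dependent kinase inhibitor p21, stood at 574 CPM in WT1 and 336 CPM in WT2, and Mdm2 at 328 and 203 CPM, whereas Trp53 itself was at 212 and 193 CPM. The medians were -0.34 for cholesterol synthesis, -0.34 for MHC class I genes, -0.25 for heat shock genes, -0.22 for the unfolded protein response, -0.15 for the respiratory chain and -0.05 for ribosomal proteins. They were 0.14 for immediate early genes and 0.18 for cytokine and NF-kB targets.

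**Figure D4:**
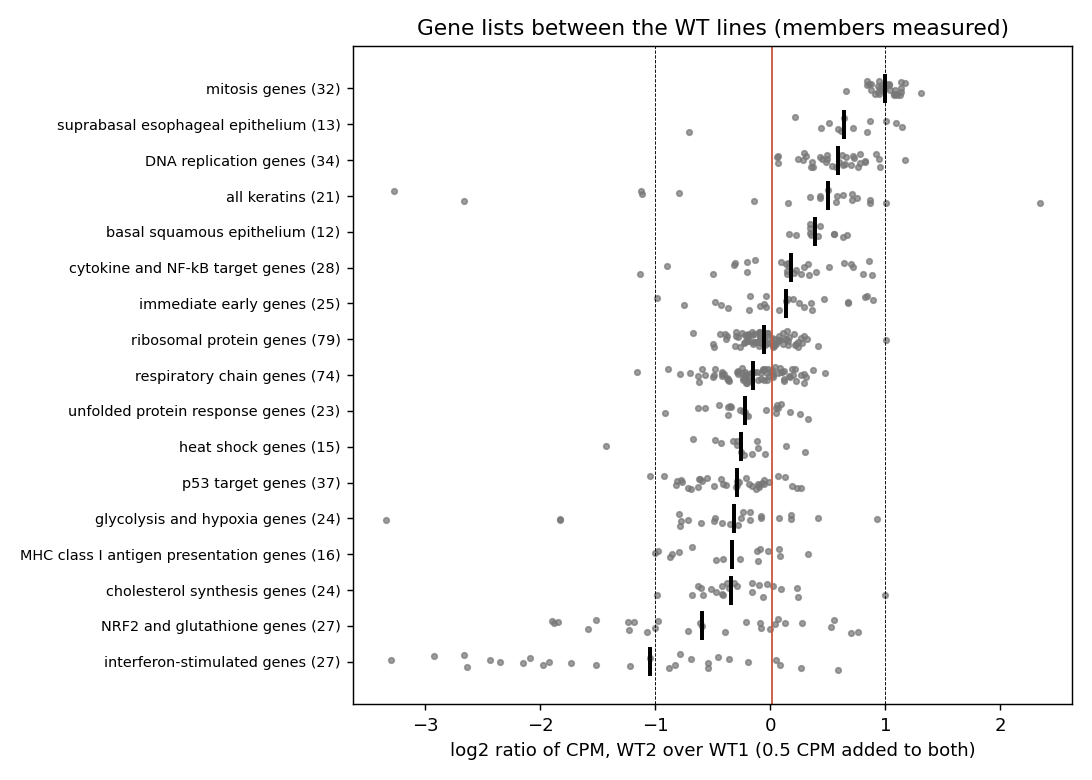
Log2 ratio of WT2 over WT1, with 0.5 CPM added to both, for each measured member of 17 gene lists, the number measured being in parentheses. Grey points are genes, black bars are medians, the red line is the median of all genes and the dashed lines are 2-fold. The mitosis genes are grouped around their median of 0.996, whereas interferon-stimulated and NRF2 genes spread over more than 2 log2 units.

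Receptors and ligands differed in single members. Of 130 receptors measured, 2 (1.54%) were 2-fold higher in WT2 and 5 (3.85%) in WT1, close to the 1.24% and 2.93% of all genes. Tnfrsf26, a TNF receptor family member of the mouse, had the largest ratio of any gene with a mean of 10 CPM or more, at 135 CPM in WT1 and 2.60 CPM in WT2 (51.8-fold, 95% counting interval 36.6 to 75.9). Its close relatives were less than 2-fold apart, with Tnfrsf22 at 31.8 and 32.8 CPM and Tnfrsf23 at 206 and 116 CPM. In the altered lines Tnfrsf26 ranged from 0.308 to 14.3 CPM. The interleukin receptors Il13ra1 (35.6 and 12.3 CPM) and Il17rd (14.7 and 4.63 CPM) were also higher in WT1, and Il1rl2, the receptor for IL-36, was higher in WT2 (5.07 and 11.7 CPM).

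Of 194 secreted factors measured, 10 (5.15%) were 2-fold higher in WT2 and 18 (9.28%) in WT1, beside 1.24% and 2.93% of all genes. Higher in WT1 were the vasoactive peptide Edn2 (24.0 and 1.06 CPM), the iron-binding protein Lcn2 (47.5 and 6.98 CPM), Dkk3 (16.9 and 1.95 CPM) and Wnt7b (180.2 and 88.2 CPM). The FGF family member Fgf13 (11.5 and 1.62 CPM), counted in these lists by its name although it stays inside the cell, was also higher in WT1. Higher in WT2 were the matrix proteins tenascin-C and Fn1 (133 and 281 CPM) and the morphogen Bmp7 (10.5 and 25.7 CPM). Fras1, an extracellular matrix protein of the basement membrane, was also higher in WT2 (18.3 and 42.5 CPM). At low levels WT2 held counts of stromal matrix genes that WT1 nearly lacked. Bgn was on 3 and 43 counts in WT1 and WT2, Col5a2 on 2 and 24, Lox on 2 and 30, Timp3 on 3 and 40, and Col3a1 on 0 and 20. In other lines of the series Col3a1 reached 276 CPM, and whether the counts in WT2 come from the cells of that line was not tested.

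Of 217 transcription factors measured, 7 (3.23%) were 2-fold higher in each line, beside 1.24% of all genes in WT2 and 2.93% in WT1. Of 19 HOX genes measured, 5 were 2-fold apart. Hoxc6 (10.1 and 21.4 CPM), Hoxc8 (10.9 and 23.1 CPM), Hoxc9 (3.10 and 8.36 CPM) and Hoxa9 (2.31 and 5.76 CPM) were higher in WT2, and Hoxb4 (17.1 and 4.06 CPM) was higher in WT1. Foxm1, a factor of the mitotic program, was at 28.2 and 57.3 CPM, and Foxa1 at 10.8 and 3.25 CPM. Sox2, Pitx1, Pax9 and Grhl2 were each less than 2-fold apart. Xist was 2.45-fold higher in WT2 than in WT1. The giant cadherin Fat2, known from squamous epithelium, was at 70.4 and 166 CPM.

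A difference in transcript length ran beside that between the lines. The median exonic length was 4038.5 bases for genes 2-fold higher in WT2, 2964.5 bases for those higher in WT1 and 3337 bases for all genes compared. The median log2 ratio was -0.06 for the 499 genes under 1000 bases and 0.11 for the 795 genes of 8000 bases or more. The part of length in the differences of lists and single genes was not tested.

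When each WT line was set as its own group and the spread was taken from the mutant and null lines, edgeR called 0 of 13768 genes (0.0%) between WT2 and WT1. At an unadjusted p under 0.05 there were 204 genes, 22 of them higher in WT2. limma-voom also called 0, with 68 at an unadjusted p under 0.05, and DESeq2 called 23, of which 3 were higher in WT2 (Rn45s, Col3a1 and Atoh8, which had 1 count in WT2 and none in WT1). The 20 that DESeq2 called lower in WT2 included Fam171b, Bnip3, Slc39a4, Sqstm1, Txnrd1, Krt18 and Gbp2. Counts were also simulated at the same depth, with the same spread set for every gene and changes only in genes above a minimum mean level. There the edgeR comparison called 0% of genes changed 2-fold, 2% at 4-fold, 62% at 16-fold and 96% at 64-fold. The spread of the real counts differs between genes, so these shares are only a guide. An absence of calls therefore says little about differences of the sizes given above.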

How the data were processed

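The libraries of the 7 cell lines were made from poly(A) RNA with a stranded kit, per the labels' protocols. The authors deposited a table of unnormalized counts per gene name, aligned with STAR 2.5.1b to build mm9 per the submitters' processing notes. The counting tool, its use of strand and the gene models were not given in the sources used here. Overlapping antisense genes are therefore uncertain. Of 24047 names, 92 spike-in names (0 counts) were left out and 27 date-like names were kept unnamed. Groups and numbers come from the titles. Each replicate is a cell line, and the p-values rest on the spread among the lines.

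CPM were computed on TMM-scaled totals (factors 0.940 in WT1, 0.966 in WT2; the genes tested held over 99% of counts). Exonic lengths came from the GENCODE M21 basic annotation (GRCm38) by name (23563 matched) and served only as gene properties. Intervals of ratios are exact binomial, at 95%. Tests were run in R 4.3.3 with edgeR 4.0.16 (quasi-likelihood F test in its default form, default expression filter by group, Benjamini-Hochberg, threshold 0.05). The comparison with the altered lines was WT minus the mean of mutant and null; the lines fit set each WT line as its own group. DESeq2 1.42.0, limma-voom 3.58.1, other scalings, pseudocounts and filters, thinned counts, a replicate block and fits without each library in turn were the alternatives. The tests were checked on simulated counts of 13768 genes.

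Promoter windows were RefSeq sequences of GRCm38.p6. Of 11157 windows compared, 86.32% had the bases after their start in a transcript of the same gene.

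Genes, gene lists (92) and tests were chosen with earlier results of these data known. Named genes were the 30 highest in mean CPM, up to 5 leading members and 3 members at least 4-fold apart per list, the 15 largest ratios each way at a mean of 10 CPM or more, textbook markers and absent members. Other genes named as called, as examples of a list, or as leading per kb were chosen after their values were seen. All 7 sample columns were used, and a few genes are not reported here.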

Additional observations from a re-analysis of the deposited data

How the results depend on the processing

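The count of genes at 1 CPM or more in both lines stayed within 1.5 times under every alternative run. The 14 list medians between the lines kept their sign, and the smallest, that of ribosomal proteins, went from -0.0804 to -0.0151 with the scaling. Scaling moved the median ratio of all genes by less than 0.1. Per kb of exon, 17 of the 30 leading genes stayed among the 30 highest. With a pseudocount of 2 CPM, 52 genes were 2-fold higher in WT2 (81.5% of the calls were then higher in WT1, against 70.2%). At a mean of 5 CPM the counts were 90 and 206 for higher in WT2 and in WT1, and at 4-fold 6 and 70 (92.1% higher in WT1). Between the lines DESeq2 called 3 genes higher and 20 lower in WT2, where edgeR, limma-voom and each leave-one-out fit called 0. Against the altered lines, DESeq2 called 1239 genes higher and 1580 lower in WT, and limma-voom called 88 lower. Leaving out 1 library gave 1 to 558 higher and 0 to 368 lower. Without WT2 only Xist was called, and without WT1 Xist, Slitrk6 and 9030617O03Rik. Without mutant 2, mutant 3 or null 3 there were 56, 48 and 113 higher and 32, 15 and 85 lower. Whether equal replicate numbers pair these lines is not known. Correlations of same-numbered deviations ran from -0.405 to 0.138, but in groups of 2 libraries the deviations mirror each other, so these values cannot decide it. With a replicate block edgeR called 0 either way, with 2255 at an unadjusted p under 0.05, and 0 between the lines. The causes were not tested. The 12751118 counts of WT2 limit genes below about 1 CPM. Counted as 1 gene under 1 alternative, 696 results on single genes kept their size or call, 31 moved and 89 lost their call. The 89 all belong to named genes compared with the altered lines. Each of those genes kept its call under 6 (Sdc1) to 11 of 14 alternatives, with Krt5 under 9 and Itgb4 under 7.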

Other observations

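Among the 15 largest ratios each way at a mean of 10 CPM or more, several genes belonged to none of the families described. Higher in WT1 were the membrane protein gene Fam171b (24.7 and 0.568 CPM in WT1 and WT2), the zinc transporter Slc39a4 (44.6 and 3.82 CPM), the junction and YAP-binding protein Amot (29.0 and 2.35 CPM), the membrane raft protein Flot2 (37.9 and 6.09 CPM) and Hap1, the partner of huntingtin (20.6 and 1.30 CPM). In the 5 altered lines Fam171b ranged from 13.1 to 38.8 CPM and Flot2 from 37.7 to 148 CPM, in every case above WT2. Slc39a4 ranged from 2.94 to 53.3 CPM and overlapped both WT values.

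Higher in WT2 were further genes of chromosome replication and repair, namely the kinetochore protein Kntc1 (18.2 and 43.0 CPM) and the crosslink repair protein Fancd2 (10.4 and 24.8 CPM). With them stood the hedgehog pathway factor Gli3 (7.42 and 17.3 CPM), the sialic acid acetyltransferase Casd1 (5.65 and 14.9 CPM) and Nav3 (6.74 and 15.9 CPM). These ratios lay between 2.33 and 2.63, whereas those of the genes higher in WT1 lay between 6.23 and 43.5. Each is a ratio of 1 library to 1 library and was not tested by itself.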
